A study of Mus musculus with 7 samples.

Results

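The nuclear genes of respiratory complexes II to V were examined in kidney RNA from MRL/lpr mice, comparing 4 animals given AZD1152 with 3 given vehicle. MRL/lpr mice carry a defective Fas gene and develop a spontaneous lupus-like nephritis, and animals of both groups were of this strain. AZD1152 (barasertib) is a prodrug of an inhibitor of Aurora kinase B, a kinase of chromosome segregation and cytokinesis. The labels used here gave no dose, schedule or age of the animals. Each mouse gave 1 poly(A)-selected library of whole renal tissue, so fewer cells of a type and less RNA per cell cannot be told apart.

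Genes were members when they were annotated as protein coding and named Sdha, Sdhb, Sdhc, Sdhd, Cyc1 or Cycs, or when their symbol began with Uqcr, Atp5 or Cox followed by a digit. This gave 58 of the 53465 genes in the table, and 9 further genes with such names were processed pseudogenes and were left out. Of the 58 members 55 had enough counts to be tested. The names also take in 9 Cox genes that encode assembly factors of complex IV and not subunits, and these are described apart. The mitochondrially encoded subunits, and subunits and assembly factors with other names, are not members and were followed as separate lists.

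Complex II (succinate dehydrogenase) oxidises succinate and passes the electrons to ubiquinone, and it also works as an enzyme of the citrate cycle. Complex III (cytochrome bc1) moves electrons from ubiquinol to cytochrome c, and complex IV (cytochrome c oxidase) passes them on to oxygen, while both add to the proton gradient across the inner mitochondrial membrane. Complex V (ATP synthase) lets the protons flow back and makes ATP, and in the kidney this ATP drives the sodium pumps on which reabsorption in the proximal tubule and the distal segments depends.

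Library totals ran from 14692113 to 17036862 counts, and 15774 genes were tested. The members together took 1.35%, 1.42% and 1.25% of all counts in the vehicle libraries and 1.48%, 1.54%, 1.49% and 1.55% in the AZD1152 libraries, and the groups did not overlap. RNA from the mitochondrial genome made up 8.03% to 9.0% of counts in vehicle and 9.41% to 11.6% in AZD1152. Levels are given below as CPM, counts per 1000000 of a library total scaled by the trimmed mean of M-values (TMM), and 3 counts, the floor for a gene with no counts, correspond to 0.167 to 0.213 CPM.

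Most members had somewhat more RNA in the AZD1152 kidneys. With edgeR's quasi-likelihood test, adjusted by Benjamini-Hochberg over all genes tested with a threshold of 0.05, 7 of 55 members (12.7%) rose and 0 fell, while 3.02% of all genes tested rose and 4.81% fell. The 7 were Sdha, Uqcrc2, Uqcr11, Cox6b2, Cox7a2, Cox6a1 and Atp5d. At an unadjusted p under 0.05, 35 members were higher and 0 lower in edgeR, against 11.7% and 13.1% of all genes. DESeq2 called 28 members higher and 0 lower, against 6.02% of all genes higher.

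The estimate was above 0 for 48 of 55 members (87.3%), against 49.9% of all genes, and for 42 with library totals in place of the TMM scale. The median log2 fold change was 0.27, a 1.21-fold higher level in AZD1152, and the median over all genes tested was -0.000597. All AZD1152 libraries lay above all vehicle libraries for 31 members (56.4%) and below them for 1, where 11.2% and 11.6% of all genes did so. The summed level of the members was 13046, 13699.6 and 11235 CPM in vehicle and 15302, 16792, 15308 and 16168 CPM in AZD1152, a ratio of means of 1.26. Vehicle replicate 3 was the lowest of the 7 libraries for 43 members, and AZD1152 replicate 2 the highest for 29.

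The members are abundant transcripts, and abundant genes as a whole were shifted towards higher levels in AZD1152. Among the 28 members at or above the median level of the members (160.0 CPM), 4 rose (14.3%), and of the 1110 genes of the table at or above the same level 14.1% rose, so the share of calls was near the background. The estimate was above 0 for all 28 members there, and for 78.5% of all genes at that level, well over the 49.9% of the whole table. The share of members with no overlap was 82.1% there, against 40.1% of all genes at that level, and the median log2 fold change was 0.31 against 0.18. This level was chosen after the data were seen.

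**Figure D1:**
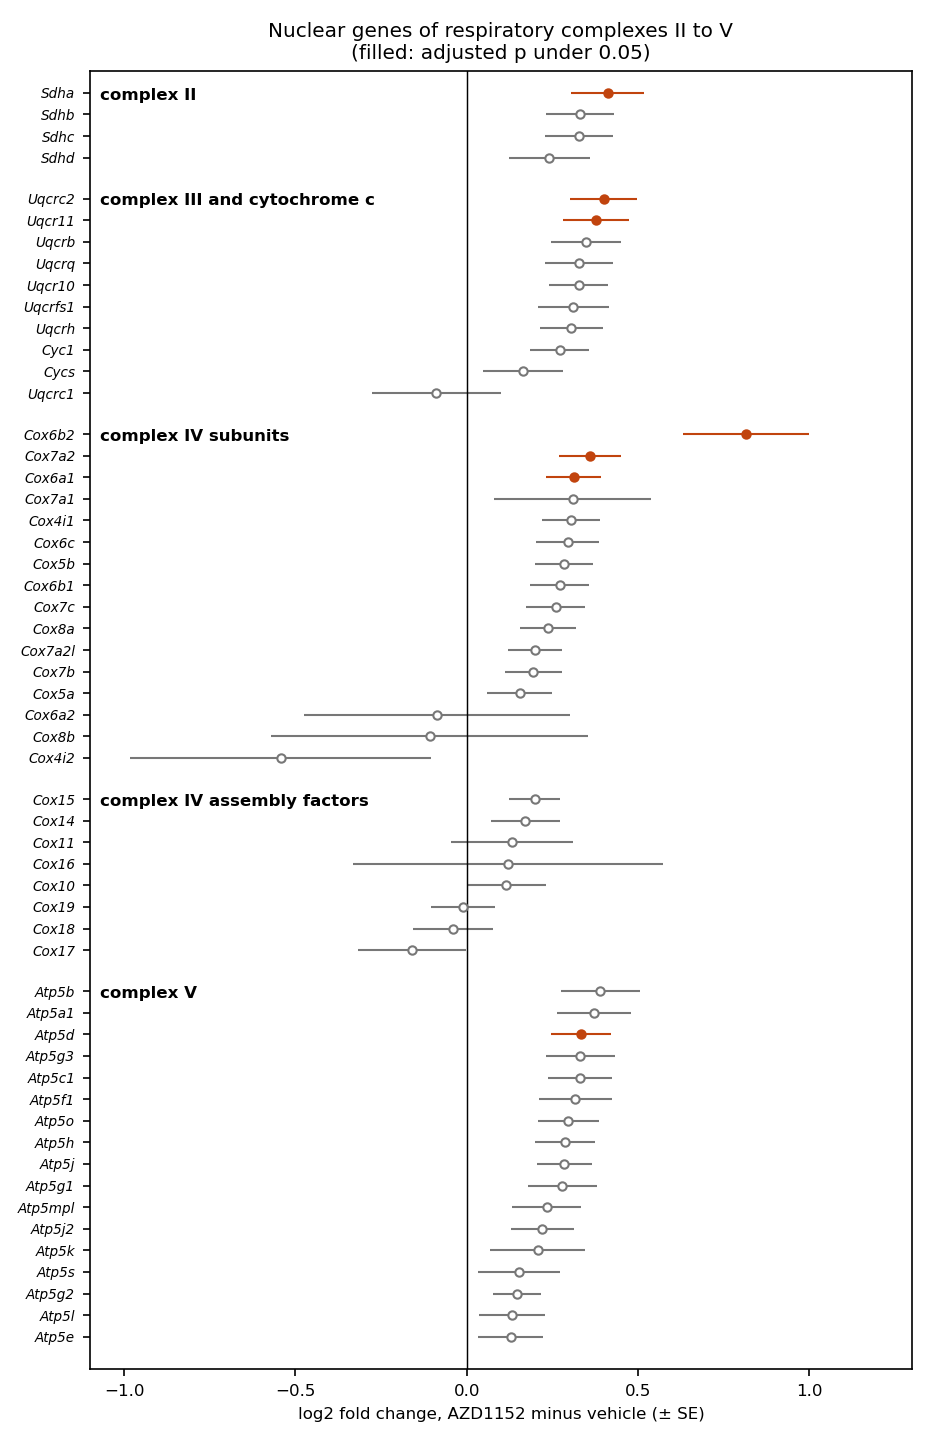
Log2 fold change (AZD1152 minus vehicle, x axis) with its standard error for the 55 members tested, grouped by complex on the y axis, and filled where the adjusted p was under 0.05. Estimates of complexes II and V all lie above 0, from 0.13 to 0.41 (with library totals 3 of complex V lie below 0), while the assembly factors of complex IV lie around 0, from -0.16 to 0.20.

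The 7 calls sat close to the threshold and moved with single libraries. Counted over all members, 5 were called when vehicle replicate 2 was dropped, 4 when AZD1152 replicate 1 was and 1 when AZD1152 replicate 4 was. Dropping any other library gave 0 called members. Each of the 7 genes lost its call when any 1 of 6 (Sdha, Uqcr11, Cox6b2, Cox6a1, Atp5d) or of all 7 (Uqcrc2, Cox7a2) libraries was left out, with adjusted p up to 0.169 in edgeR. The exceptions were vehicle replicate 2 for Sdha, Cox6a1 and Atp5d, AZD1152 replicate 1 for Uqcr11 and AZD1152 replicate 4 for Cox6b2. The remaining calls among the 5 and the 4 members above were of genes outside the 7. With library totals in place of TMM the median of all genes moved to -0.15, the whole table gave 232 higher and 1482 lower genes in place of 476 and 759, and 0 members were called, with a member median of 0.12.

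The sequences upstream of these genes are shown next, because the promoters of nuclear respiratory genes are known for a small set of shared elements. NRF1, a transcription factor that binds GC-rich palindromes, the estrogen-related receptors (ERR), YY1 and the ETS-family factor GABP (NRF2) are all known regulators of such genes. RefSeq promoters of build GRCm38.p6, from 250 bases before to 50 bases after the start site, matched 42 member genes with 46 promoters, out of 32851 promoters in all. Motifs were searched as exact letters on both strands, and no matches of different motifs overlapped in the member promoters. The motifs and the promoters printed were chosen after the data were seen.

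The NRF1 motif GCGCANGCG was present in 13 of 46 member promoters (28.3%), those of Sdha, Sdhd, Cycs, Uqcr11, Uqcrc1, Cox6a1, Atp5c1, Atp5g2, Atp5g3, Atp5h, Atp5k, Atp5l and Atp5o, against 6.25% of all promoters. The YY1 motif AANATGGCG was in 8.7% (Atp5b, Atp5j, Atp5j2 and Cox10) against 2.38%. The ETS motif ACCGGAAG was in 6.52% (Atp5e, Sdhb and Sdhd) against 2.3%, and the ERR motif TNAAGGTCA in 4.35% (Atp5g3 and Sdhd) against 1.28%. The GC box GGGGCGGGG was in 13% of member promoters against 11.4%, and CCAAT in 52.2% against 37.4%. Member promoters held a median of 19 CpG dinucleotides and all promoters a median of 7, and the part of this base composition in the matches was not tested.

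Printed below, 5′ to 3′ on the gene's strand with matches to the NRF1, ERR, YY1 and ETS motifs in capitals, are the promoters of Sdha and Cox6a1, which rose and hold 3 NRF1 matches each, of Sdhd, which holds matches to 3 of the 4 motifs but was not called, and of Cox6b2, which had the largest estimate and holds none of the 4. Sdha (chr13:74350191-74350490, minus strand) has 3 NRF1 matches that begin 98, 55 and 10 bases before the start site. Cox6a1 (chr5:115348909-115349208, minus strand) has a palindromic site that matches on both strands, beginning 162 bases before it, and a single match that begins 117 bases before it. The promoter of Uqcrc1, whose estimate was -0.09 (edgeR adjusted p 0.819), also holds 3 NRF1 matches. Among the called members not printed, Uqcr11 holds 1 NRF1 match, Cox7a2 and Atp5d hold none of the 4 motifs, and Uqcrc2 had no promoter to search. Sdhd (chr9:50603800-50604099, minus strand) has an NRF1 match 79 bases and an ETS match 46 bases before the start site and an ERR match 37 bases after it. Cox6b2 (chr7:4753045-4753344, minus strand) holds 10 CpG dinucleotides, against 25 in Sdha, 29 in Sdhd and 32 in Cox6a1.
Sdha: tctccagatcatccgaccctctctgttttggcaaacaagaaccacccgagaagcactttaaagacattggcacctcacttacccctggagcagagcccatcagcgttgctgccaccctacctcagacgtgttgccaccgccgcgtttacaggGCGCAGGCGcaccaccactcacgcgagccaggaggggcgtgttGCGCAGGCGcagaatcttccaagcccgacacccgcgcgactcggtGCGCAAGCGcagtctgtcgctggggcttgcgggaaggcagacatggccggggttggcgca
Cox6a1: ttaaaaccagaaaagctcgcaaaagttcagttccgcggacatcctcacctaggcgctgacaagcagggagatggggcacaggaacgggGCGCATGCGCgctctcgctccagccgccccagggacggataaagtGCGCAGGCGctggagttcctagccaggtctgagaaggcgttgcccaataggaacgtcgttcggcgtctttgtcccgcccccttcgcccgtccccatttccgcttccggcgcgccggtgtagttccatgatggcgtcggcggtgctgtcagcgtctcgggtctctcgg
Sdhd: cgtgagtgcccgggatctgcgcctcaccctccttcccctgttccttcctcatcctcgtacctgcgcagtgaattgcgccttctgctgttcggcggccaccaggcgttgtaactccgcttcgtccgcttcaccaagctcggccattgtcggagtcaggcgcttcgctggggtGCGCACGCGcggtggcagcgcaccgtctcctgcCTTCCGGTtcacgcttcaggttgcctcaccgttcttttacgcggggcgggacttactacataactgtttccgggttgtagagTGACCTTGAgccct
Cox6b2: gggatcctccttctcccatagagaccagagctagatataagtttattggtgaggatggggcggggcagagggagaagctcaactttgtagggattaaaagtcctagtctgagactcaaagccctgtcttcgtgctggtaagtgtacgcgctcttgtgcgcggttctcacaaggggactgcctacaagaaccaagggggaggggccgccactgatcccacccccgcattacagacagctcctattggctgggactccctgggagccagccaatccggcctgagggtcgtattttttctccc
A match of letters describes the sequence and does not show that a factor binds there.

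In complex II, Sdha rose, and the 3 other subunits had smaller estimates above 0 that did not pass the test. Sdha encodes the flavoprotein that oxidises succinate, and it measured 760.0, 829.6 and 643 CPM in the vehicle libraries and 986, 1056, 932 and 985 CPM in the AZD1152 libraries. Every AZD1152 library was above every vehicle library. The means were 744 ± 94.3 (SD, n = 3) and 989.9 ± 50.9 CPM (SD, n = 4), with a log2 fold change of 0.41 ± 0.11 (SE) and an edgeR adjusted p of 0.0489. The gene (ENSMUSG00000021577) lies on chromosome 13, 74322254 to 74350280, minus strand (GRCm38), and its promoter is the one printed above with 3 NRF1 matches.

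Sdhb encodes the iron-sulfur subunit that carries electrons from the flavin, and it had 269.9, 306 and 244 CPM in vehicle and 334, 369, 315 and 356 CPM in AZD1152 (log2 fold change 0.33 ± 0.10, edgeR adjusted p 0.0761). Sdhc, a membrane anchor, had 233, 249.7 and 197 CPM in vehicle and 269, 308, 276 and 284 CPM in AZD1152 (0.33 ± 0.10, edgeR adjusted p 0.0758). The groups did not overlap for either gene. Sdhd, the other anchor, had 266, 277 and 217 CPM in vehicle and 265, 347, 288 and 298 CPM in AZD1152 (0.24 ± 0.12, edgeR adjusted p 0.246), and AZD1152 replicate 1 fell within the vehicle range. Summed over the 4 genes the level was 1300.4 to 1662 CPM in vehicle and 1812 to 2081 CPM in AZD1152, a ratio of means of 1.28. Per kilobase of principal transcript in vehicle, Sdha measured 257 ± 32.5 CPM per kb, Sdhb 239 ± 27.3 and Sdhd 206 ± 25.96. Sdhc was lower at 71.4 ± 8.51, with a length of 3171 bases used for it and 1231 for Sdhd.

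In complex III with cytochrome c, 2 of 10 members rose, 8 had an unadjusted p under 0.05 and 7 had no overlap between the groups. Over all genes tested, 3.02% rose, 11.7% were higher at that unadjusted p in edgeR, and 11.2% had every AZD1152 library above vehicle. Among genes at or above 160.0 CPM, 14.1% rose and 40.1% had every AZD1152 library above vehicle. The median log2 fold change in the complex was 0.32. Its summed level was 1573 to 1873 CPM in vehicle and 1997 to 2291 CPM in AZD1152, a ratio of means of 1.23. Uqcrc2 encodes core protein 2, a matrix-facing part of the complex, and it measured 329.9, 329.7 and 277 CPM in vehicle and 399, 455, 381 and 413 CPM in AZD1152. The AZD1152 libraries were all higher. The means were 312 ± 30.3 and 412 ± 31.5 CPM, with a log2 fold change of 0.40 ± 0.10 and an edgeR adjusted p of 0.0424. Uqcrc2 (ENSMUSG00000030884, chromosome 7, 120635176 to 120659524, plus strand) shares 504 exonic bases with Pdzd9 on the opposite strand, which also holds 17.65% of its 50-base stretches, so without a known strand setting part of its reads cannot be assigned with certainty.

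Uqcr11, a small subunit at the edge of the complex, had 77.7, 74.6 and 72.1 CPM in vehicle and 81.1, 100.02, 107 and 101 CPM in AZD1152. AZD1152 replicate 1 was close to the vehicle libraries and the other 3 were well above them. The log2 fold change was 0.38 ± 0.10 with an edgeR adjusted p of 0.047, and the gene (ENSMUSG00000020163) lies on chromosome 10, 80402997 to 80406830, minus strand. Uqcr10, another small subunit, stood just outside the threshold with an edgeR adjusted p of 0.0507 (log2 fold change 0.33 ± 0.09). Its levels were 142, 149 and 128 CPM in vehicle and 158, 179, 177 and 186 CPM in AZD1152, with no overlap. Uqcrb, which takes part in ubiquinone binding, was next, with 0.35 ± 0.10 and an edgeR adjusted p of 0.0689.

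Uqcrc1, the other core protein, was the exception in complex III. It had 104, 63.4 and 97.5 CPM in vehicle and 62.4, 89.1, 82.5 and 97.9 CPM in AZD1152, an estimate of -0.09 ± 0.19 (adjusted p 0.819 in edgeR), and the groups overlapped. The estimate was 0.05 without vehicle replicate 1 and 0.03 without AZD1152 replicate 1. Core proteins 1 and 2 are present in equal number in the complex, and per kilobase the vehicle level was 53.3 ± 13.1 CPM for Uqcrc1 and 165 ± 15.99 CPM for Uqcrc2. Cyc1, the cytochrome c1 subunit, had an estimate of 0.27 ± 0.09 (edgeR adjusted p 0.0892). Cycs, the mobile carrier cytochrome c, had 0.16 ± 0.12 (edgeR adjusted p 0.438), and 26.15% of its 50-base stretches also occur in other transcripts.

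**Figure D2:**
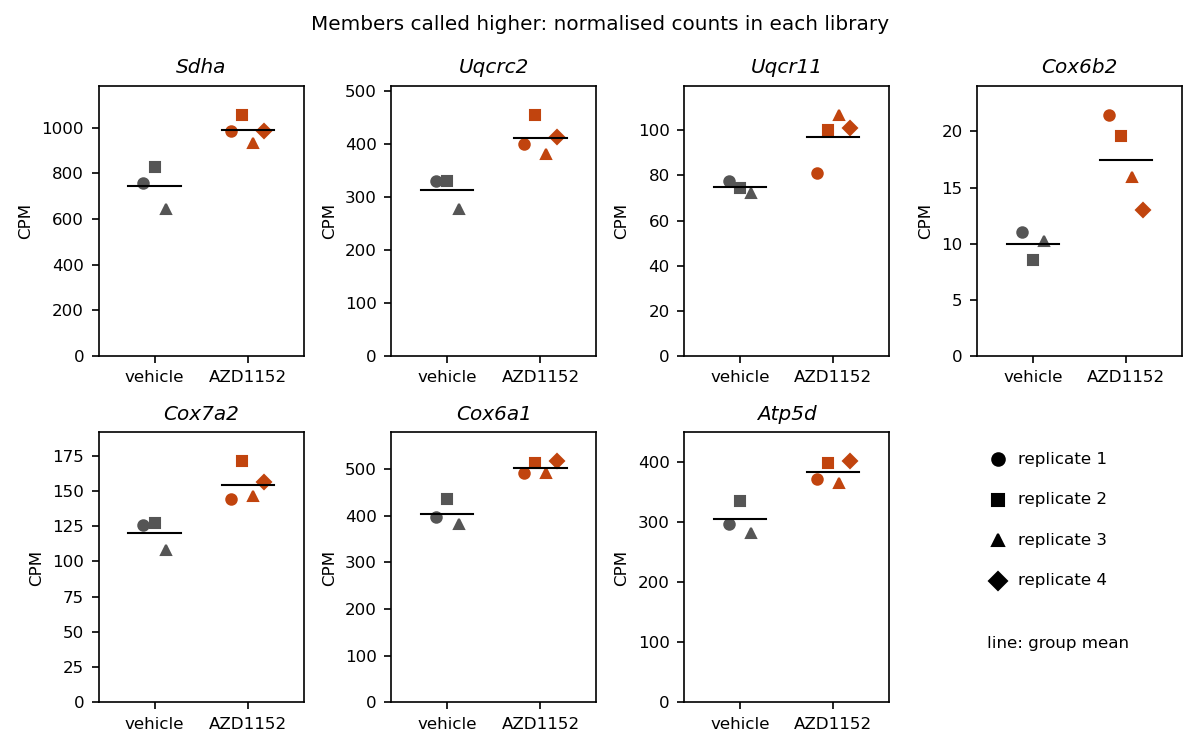
Level in CPM (y axis) of the 7 members that rose, with 1 point for each of the 3 vehicle and 4 AZD1152 libraries (x axis) and a line at the group mean. The groups do not overlap in any panel, and AZD1152 replicate 1 lies nearest to vehicle for Uqcr11 at 81.1 CPM.

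In complex IV, 3 of 16 tested subunit genes rose (Cox6b2, Cox7a2 and Cox6a1), 11 had an unadjusted p under 0.05 and 10 had no overlap. Over all genes tested, 3.02% rose, 11.7% were higher at that unadjusted p in edgeR, and 11.2% had every AZD1152 library above vehicle. Among genes at or above 160.0 CPM, 14.1% rose and 40.1% had every AZD1152 library above vehicle. The median log2 fold change of the subunit genes was 0.27. Their summed level was 2057 to 2351 CPM in vehicle and 2613 to 2875 CPM in AZD1152, a ratio of means of 1.21. Cox6a1 encodes the isoform of subunit VIa found in most tissues, and it measured 397, 436 and 381 CPM in vehicle and 492, 512, 491 and 517 CPM in AZD1152. The AZD1152 libraries lay within a narrow range above all vehicle libraries. The log2 fold change was 0.31 ± 0.08 (edgeR adjusted p 0.0479), and the gene (ENSMUSG00000041697) lies on chromosome 5, 115345642 to 115348981, minus strand, with 9.16% of its 50-base stretches found in other transcripts.

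Cox7a2, the widely expressed isoform of subunit VIIa, had 126, 128 and 108 CPM in vehicle and 144, 171, 146 and 156 CPM in AZD1152. All AZD1152 libraries were higher, with a log2 fold change of 0.36 ± 0.09 and an edgeR adjusted p of 0.0462 (ENSMUSG00000032330, chromosome 9, 79755361 to 79759878, minus strand). Cox4i1, the main isoform of subunit IV, did not pass the test (0.30 ± 0.09, edgeR adjusted p 0.0639), nor did Cox6b1 (0.27 ± 0.09, 0.0911) and Cox8a (0.24 ± 0.08, 0.114).

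Cox6b2 had the largest estimate of all members. It encodes an isoform of subunit VIb known from testis, and in these kidneys it measured 11.01, 8.57 and 10.3 CPM in vehicle and 21.5, 19.6, 15.9 and 12.97 CPM in AZD1152. The lowest AZD1152 library, replicate 4, was still above the highest vehicle library. The means were 9.95 ± 1.25 and 17.5 ± 3.80 CPM, a 1.76-fold difference, with a log2 fold change of 0.81 ± 0.18 and an edgeR adjusted p of 0.0341 (ENSMUSG00000051811, chromosome 7, 4751792 to 4753094, minus strand). It remained a minor transcript, at 17.01 ± 2.14 CPM per kb in vehicle and 29.9 ± 6.49 in AZD1152, against 328 ± 33.6 and 396 ± 15.3 for Cox6b1.

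The other tissue-restricted isoforms of complex IV were low and were not called. Cox7a1, the heart and muscle isoform of subunit VIIa, had 6.41, 7.42 and 3.78 CPM in vehicle and 6.41, 7.04, 7.22 and 8.43 CPM in AZD1152 (log2 fold change 0.31 ± 0.23, edgeR adjusted p 0.454). Cox8b, the heart and muscle isoform of subunit VIII, had 4.43, 3.14 and 4.33 CPM in vehicle and 5.20, 0.996, 3.07 and 5.46 CPM in AZD1152 (-0.11 ± 0.46, edgeR adjusted p 0.914), and AZD1152 replicate 2 was the low library. Its estimate was 0.19 without that library. Cox6a2, a muscle isoform with 67 counts in all, and Cox4i2, an isoform known from lung with 79 counts, had estimates of -0.09 ± 0.39 and -0.54 ± 0.44 with edgeR adjusted p of 0.919 and 0.494. Cox7b2 and Cox8c, known from testis, had 0 counts in all 7 libraries. Skeletal muscle markers were near 0, with 3 of 9 tested, Acta1 and Myh4 at 0 counts and a summed level of 1.98 to 4.68 CPM over the 7 libraries. Of 8 fat markers 1 was tested, Fabp4, a fatty acid binding protein also known from endothelium, which had 50.6, 26.2 and 49.1 CPM in vehicle and 42.8, 26.8, 30.1 and 31.3 CPM in AZD1152. The other 7 had at most 7 counts each over all libraries, with Lep and Adipoq at 0.

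Isoform ratios within a library hardly depend on how libraries are scaled, and 7 pairs were compared with an exact permutation test over all 35 assignments of the libraries (two-sided, smallest possible p 0.0286). The groups overlapped in each ratio. After Benjamini-Hochberg adjustment over the 7 ratios a single fully separated ratio could not go below 0.2, so the adjusted values say little about whether a ratio differed. The log2 ratio of Cox6b2 to Cox6b1 was -4.26, -4.64 and -4.11 in vehicle and -3.43, -3.69, -3.91 and -4.26 in AZD1152, a difference of 0.51 with an exact p of 0.143 (adjusted 0.4). For Cox4i2 to Cox4i1 the difference was -0.85 (exact p 0.114, adjusted 0.4), and for Cox7a1 to Cox7a2 it was -0.01 (exact p 0.971). For Cox6a2 to Cox6a1 it was -0.37 (exact p 0.257) and for Cox8b to Cox8a -0.57 (exact p 0.486). The 3 genes for the identical mature c subunit of complex V gave differences of 0.14 for Atp5g1 to Atp5g2 (exact p 0.343) and 0.19 for Atp5g3 to Atp5g2 (exact p 0.171).

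The complex IV assembly factors with Cox names had a median estimate nearer 0. Of 9 genes 8 were tested, 0 rose or fell in edgeR, 1 had an unadjusted p under 0.05 (Cox15), and DESeq2 called 0. At that unadjusted p in edgeR, 11.7% of all genes tested were higher. The median log2 fold change was 0.12, or -0.03 with library totals, and the summed level was 197 to 218 CPM in vehicle and 211 to 233 CPM in AZD1152. Whether they differ from the subunits was not tested. Cox15, which makes heme A together with Cox10, had 63.96, 71.5 and 64.9 CPM in vehicle and 72.96, 77.6, 82.6 and 73.3 CPM in AZD1152 (log2 fold change 0.20 ± 0.07, edgeR adjusted p 0.137), with no overlap. Cox10 had 0.12 ± 0.12 (edgeR adjusted p 0.587), and its estimate was -0.03 with library totals.

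Cox17, a copper chaperone of the intermembrane space, was the member with all AZD1152 libraries below vehicle, with 4.66, 4.80 and 5.05 CPM in vehicle and 4.60, 3.85, 4.34 and 4.53 CPM in AZD1152. The gap was narrow, and the estimate of -0.16 ± 0.16 did not pass the test (edgeR adjusted p 0.585). Cox14, which acts in the early assembly of the catalytic subunit, had 0.17 ± 0.10 (edgeR adjusted p 0.33). Cox11 (0.13) and Cox16 (0.12, 95 counts) share 48.35% and 56.78% of their exonic length with Tom1l1 and Gm20498, and Cox18 (-0.04) and Cox19 (-0.01) were near 0. Cox20 had 1 count in all, and 91.05% of its exonic length overlaps Hnrnpu on the opposite strand.

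In complex V, 1 of 17 members rose (Atp5d), 12 had an unadjusted p under 0.05 and 10 had no overlap. All 17 estimates were above 0, or 14 of 17 with library totals. Over all genes tested, 3.02% rose, 11.7% were higher at that unadjusted p in edgeR, and 11.2% had every AZD1152 library above vehicle. Among genes at or above 160.0 CPM, 14.1% rose, 78.5% had an estimate above 0 and 40.1% had every AZD1152 library above vehicle. The median log2 fold change was 0.29, and the summed level was 6107 to 7607 CPM in vehicle and 8498 to 9314 CPM in AZD1152, a ratio of means of 1.28. The catalytic head is built from the products of Atp5a1 (alpha), Atp5b (beta), Atp5c1 (gamma), Atp5d (delta) and Atp5e (epsilon). Atp5d measured 297, 334 and 281 CPM in vehicle and 371, 397, 364 and 400.3 CPM in AZD1152, with no overlap. Its log2 fold change of 0.33 ± 0.09 had an edgeR adjusted p of 0.04999, at the edge of the threshold (ENSMUSG00000003072, chromosome 10, 80138632 to 80145818, plus strand, sharing 68 exonic bases with Cbarp).

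Atp5b, the catalytic beta subunit, was the most abundant member, with 2516, 2755 and 2118 CPM in vehicle and 3205, 3345, 3055 and 3310.3 CPM in AZD1152. The groups did not overlap, and the log2 fold change of 0.39 ± 0.11, the largest in complex V, missed the threshold (edgeR adjusted p 0.072). Atp5a1 had 1985, 2175 and 1720.0 CPM in vehicle and 2522, 2632, 2393 and 2598 CPM in AZD1152 (0.37 ± 0.11, edgeR adjusted p 0.0705). For both genes vehicle replicate 3 was the lowest library by a clear margin, and vehicle replicate 2 the highest of its group. Atp5c1, the rotating shaft, had 0.33 ± 0.09 (edgeR adjusted p 0.0652), and Atp5e had 0.13 ± 0.09 (0.452), the lowest of the complex, which became -0.02 with library totals.

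Among the parts in and near the membrane, Atp5j, the stalk subunit F6, had 0.29 ± 0.08 (edgeR adjusted p 0.0621), and it shares 397 exonic bases with Gabpa. The c ring genes Atp5g1, Atp5g2 and Atp5g3 had estimates of 0.28 ± 0.10, 0.15 ± 0.07 and 0.33 ± 0.10, with edgeR adjusted p of 0.125, 0.232 and 0.0766. Atp5g3 had the highest vehicle level of the c ring genes, 403 CPM, against 185 for Atp5g1 and 56.2 for Atp5g2. Per kilobase it measured 557 ± 53.3 CPM, against 76.9 ± 4.19 for Atp5g2 and 39.2 ± 4.80 for Atp5g1. The order of Atp5g1 and Atp5g2 turned on the length used, 4715 bases for Atp5g1 and 731 for Atp5g2. Other transcripts also hold 38.35% of the 50-base stretches of Atp5g2, 11.1% of those of Atp5g1 and 0.0% of those of Atp5g3. The other 8 members of the complex had estimates from 0.13 (Atp5l) to 0.32 (Atp5f1).

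**Figure D3:**
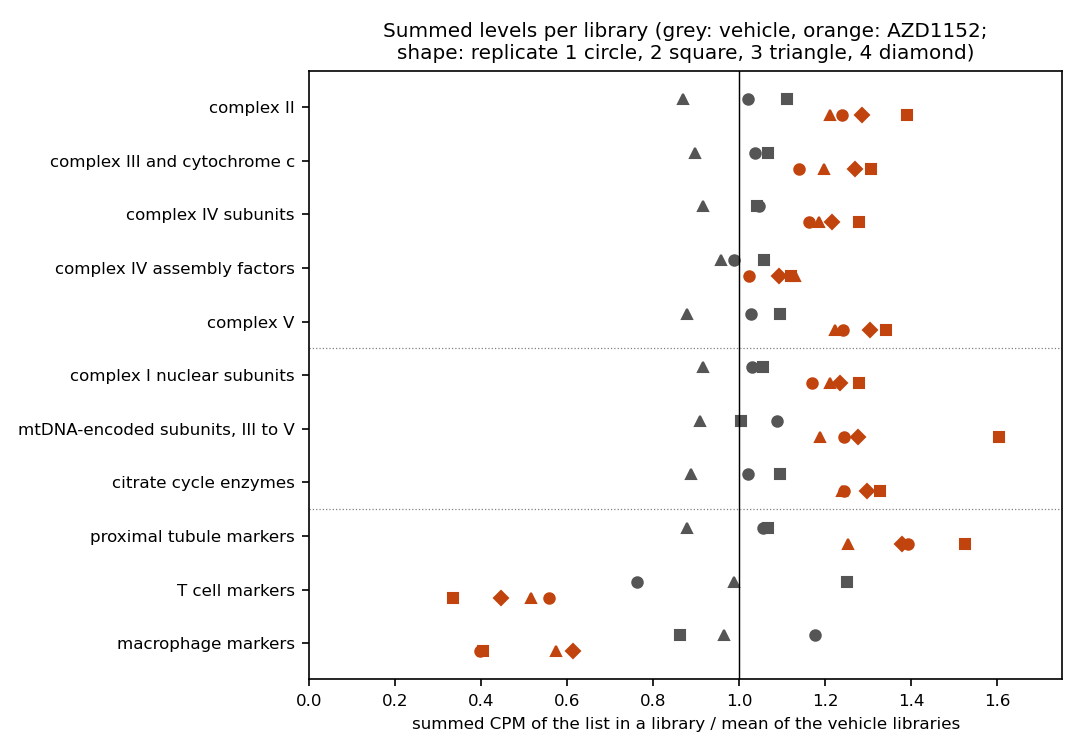
Summed CPM of each complex, pathway list and marker list in a library, divided by the mean of the vehicle libraries (x axis), for the lists on the y axis, with vehicle in grey, AZD1152 in orange and the replicate as the shape. The groups do not overlap for complex II, complex III with cytochrome c, the complex IV subunits and complex V, while the complex IV assembly factors overlap, at 197 to 218 CPM in vehicle and 211 to 233 CPM in AZD1152.

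By level per kilobase in vehicle, the alpha and beta subunits of the ATP synthase head led the members. Atp5b was highest at 1285 ± 168 CPM per kb, followed by Atp5a1 at 793 ± 92.5, Cox6a1 at 709 ± 49.4, Cox8a at 601 ± 47.4 and Atp5g3 at 557 ± 53.3. Atp5a1 and Cox6a1 differed by less than the SD of Atp5a1, and Cox8a and Atp5g3 by less than their SD. The lowest of the members tested were the restricted isoforms Cox4i2 at 1.14 ± 0.296 and Cox6a2 at 0.895 ± 0.322 and the assembly factor Cox16 at 0.395 ± 0.194 CPM per kb. Each tissue-restricted isoform was far below its widespread partner, for example Cox7a1 at 14.9 ± 4.79 against 183 ± 16.6 for Cox7a2. Lengths are of the longest principal annotated transcript of a gene, so these levels and their order depend on the annotation.

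**Figure D4:**
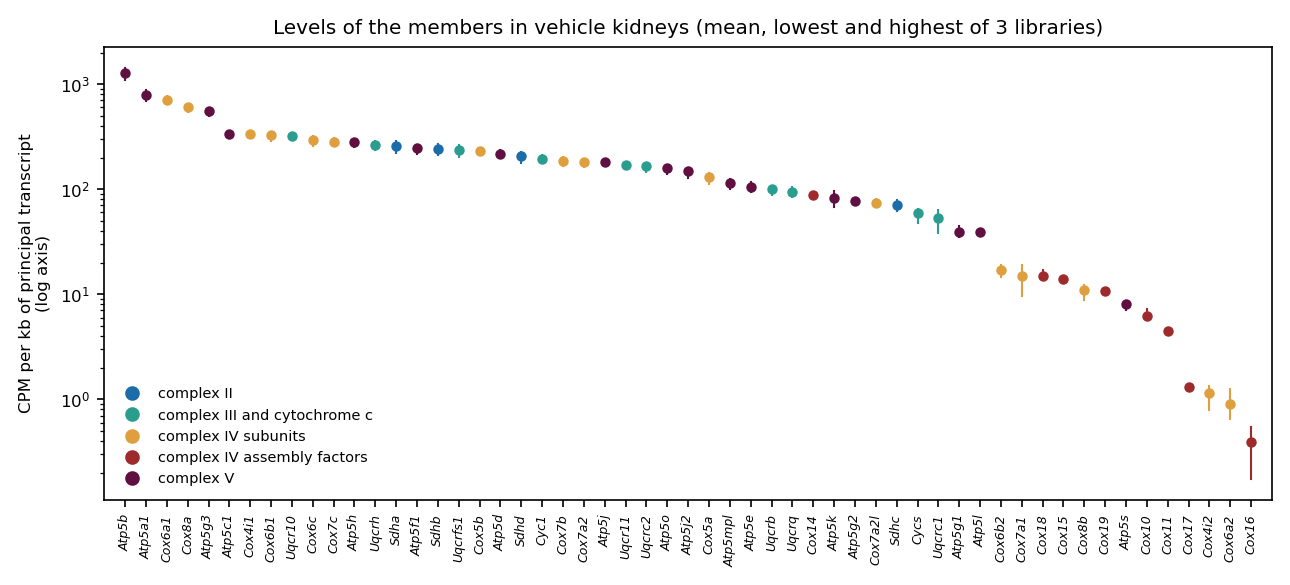
Level per kilobase of principal transcript (CPM per kb, log axis) of the members in the vehicle libraries, as the mean with the range over 3 libraries, coloured by complex. Atp5b is highest at 1285 CPM per kb, and the restricted isoforms Cox4i2 and Cox6a2 are near 1 CPM per kb.

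Other genes of the same pathway were read from lists in the same fit. Over all genes tested, 3.02% rose and 4.81% fell, and of genes at or above 160.0 CPM 14.1% rose. Of the 36 nuclear subunits of complex I, which feeds electrons from NADH into the chain, 11 rose and 0 fell (median log2 fold change 0.28), with the smallest p for Ndufa6 (0.34, edgeR adjusted p 0.0183), Ndufa9 (0.40, 0.0224) and Ndufc1 (0.47, 0.025). Of 14 citrate cycle enzymes 5 rose and 0 fell (median 0.34), among them Idh2 (0.48, edgeR adjusted p 0.0189), Idh3g (0.38, 0.0236) and Idh3b (0.40, 0.0388). Both counts dropped to 0 without vehicle replicate 1, vehicle replicate 3 or AZD1152 replicate 4. The summed level of the members was 3.80 to 4.02 times that of complex I in the vehicle libraries and 3.92 to 4.07 times in the AZD1152 libraries. It was 2.73 to 2.78 times that of the citrate cycle enzymes in vehicle and 2.68 to 2.75 times in AZD1152, and the groups overlapped in both ratios.

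A list of assembly factors of complexes II to V with other names also held Ndufa4, a complex IV subunit. Of the 32 genes tested in this list, 3 rose and 0 fell (median 0.15). They were Coa6, a copper-handling factor of complex IV (31.3 ± 1.93 to 42.5 ± 1.59 CPM, 0.44 ± 0.08, edgeR adjusted p 0.0173), Higd2a, a factor of complex IV and supercomplexes (0.31 ± 0.07, 0.036), and Fmc1, a factor of complex V (0.40 ± 0.10, 0.044). Of 21 import and outer membrane genes 3 rose and 0 fell (median 0.18), namely Timm13 (0.29, edgeR adjusted p 0.0288) and the matrix chaperones Hspd1 (0.46, 0.0387) and Hspe1 (0.37, 0.0406). Both counts were 0 without vehicle replicate 3 or AZD1152 replicate 4, and the import count also without vehicle replicate 1 or AZD1152 replicate 2 or 3. Over all genes tested in edgeR, 3.02% rose and 4.81% fell, and 11.7% were higher and 13.1% lower at an unadjusted p under 0.05. Of 16 regulators of mitochondrial biogenesis 0 rose or fell in edgeR, with 6 higher and 1 lower at an unadjusted p under 0.05 and 1 called higher by DESeq2. The nuclear receptor Esrra had 0.34 ± 0.10 (edgeR adjusted p 0.0745), Tfb2m 0.30 ± 0.10 (0.106) and the coactivator Pprc1 -0.37 ± 0.13 (0.11).

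The mitochondrially encoded partners of the members were not called in edgeR. Of 5 tested 0 rose or fell, 3 were higher at an unadjusted p under 0.05, DESeq2 called 2 higher, and the median log2 fold change was 0.50. The shares of all genes tested were 11.7% higher at that unadjusted p in edgeR and 6.02% called higher by DESeq2. mt-Cytb, the catalytic cytochrome b of complex III, had 0.50 ± 0.16 (edgeR adjusted p 0.0905), mt-Co1 of complex IV 0.37 ± 0.16 (0.181) and mt-Atp6 of complex V 0.52 ± 0.21 (0.173). mt-Atp8 had 17 counts and was not tested. These transcripts were read from poly(A)-selected libraries, and their levels were uneven, with 34636 ± 2868 CPM of mt-Co1 and 116 ± 13.7 CPM of mt-Co2 in vehicle.

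Markers of several kidney and blood cell types moved with the same comparison. Over all genes tested, 3.02% rose and 4.81% fell. Of 16 proximal tubule markers 6 rose and 0 fell (median 0.51), and their summed level was 13072 to 15845 CPM in vehicle and 18625 to 22678 CPM in AZD1152, a ratio of means of 1.39. Distal convoluted tubule markers rose in 3 of 6 (median 0.57) and collecting duct markers in 3 of 9 (median 0.34), while 0 of 6 thick ascending limb markers were called (median -0.19). T cell markers fell in 8 of 13 (median -1.40), with sums of 123 to 202 CPM in vehicle and 53.9 to 89.8 CPM in AZD1152. Macrophage markers fell in 9 of 12 (median -1.02), with sums of 964 to 1314 and 443 to 685 CPM. Of 8 B and plasma cell markers 0 were called (median -0.73), and of 4 erythroid markers tested 0 (median 0.51).

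The summed level of the members divided by that of the proximal tubule markers was 0.831, 0.865 and 0.859 in vehicle and 0.739, 0.740, 0.822 and 0.789 in AZD1152. The ratio was lower in every AZD1152 library, at 0.773 ± 0.0402 (SD, n = 4) against 0.852 ± 0.0179 (SD, n = 3), and without Kap, an androgen-dependent tubule gene, it was 0.803 ± 0.0455 against 0.876 ± 0.0129. Abundant markers weigh most in the marker sum, among them Slc34a1, with means of 3108 CPM in vehicle and 4961 CPM in AZD1152. Estimates of single proximal tubule markers ran from 0.08 (Slc3a1) and 0.14 (Lrp2) to 0.90 (Kap). These ratios were chosen after the data were seen and were not tested. The part of these cell type markers in the levels of the members was not tested.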

How the data were processed

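Kidney RNA of 7 mice was sequenced, and the values deposited by the authors are raw counts per gene with no normalization. Per the submitters' processing notes, CASAVA, HISAT2 2.0.5, DESeq2, DESeq and build GRCm38 were named. How reads were counted, with which strand setting and annotation, is not given in the sources used here. Overlapping genes and close copies therefore cannot be separated. Groups came from the sample titles. Names, coordinates and exon overlaps came from GENCODE mouse release 21 (53274 of 53465 genes named).

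edgeR's filterByExpr removed genes with low counts, TMM set the scale, and groups were compared in a quasi-likelihood fit without covariates in edgeR 4.0.16 (R 4.3.3), two-sided, over 15774 genes. DESeq2 1.42.0 was an alternative. CPM are TMM-scaled by the counts in tested genes, log2 CPM for ratios used a prior count of 2, and SE is the estimate over the root of its F statistic. PCR reads are not independent molecules, so the floor covers counting error only. The steps were checked on simulated counts, but only with changes larger than any estimated for a member. That check does not cover differences as small as those of the members. No libraries agreed within sampling noise (chi-square of at least 7.42 per degree of freedom in 21 pairs). The members, lists and tests were chosen with earlier results of these data known. Named genes were the called members, those with the smallest p of each complex up to 4, both genes of each isoform pair, untested members, each complex's extremes and up to 3 genes of a pathway list. The replicates are separate mice by the series text, and no batch or date was given. Alternatives were other scalings and filters, DESeq2, leaving out each library and a block on the replicate number.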

Additional observations from a re-analysis of the deposited data

Results flagged for a closer look

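Of 55 members tested for a library far from the other 3 of the AZD1152 group, 1 was singled out. Cox5a, a subunit of complex IV that lines its matrix side, measured 84.2 CPM in AZD1152 replicate 1, against 95.3 to 97.4 CPM in the other 3 libraries. The gap to the nearest of them was 0.841 of the range of the group, just past the limit of Dixon's test for 4 samples. Chance alone singles out about 1 in 20 such groups.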

How the results depend on the processing

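The count of members called higher was 7, and it was 0 with library totals, 28 with DESeq2 and 0 with the replicate number as a block, and ran from 0 to 5 when single libraries were left out. Settings with library totals, DESeq2 and the replicate block gave 0, 3 and 0 calls in complex II, 0, 8 and 0 in complex III with cytochrome c, 0, 8 and 0 among complex IV subunits and 0, 9 and 0 in complex V. Complex V also had 0 calls with RLE factors and with no filter on low counts. Leaving out single libraries gave 0 to 2 calls in complex II, 0 to 3 in complex III, 0 to 1 among complex IV subunits and 0 to 1 in complex V. The members' median was 0.12 with library totals, and 0.20 to 0.32 when single libraries were left out. The labels do not say that the numbers of the mice pair the groups. Libraries were correlated after the group mean of each gene was subtracted from its log2 CPM. Correlations of these deviations were -0.29, 0.21 and -0.12 for same-numbered libraries and ran from -0.23 to 0.30 for differently numbered ones. With so few libraries these values cannot show whether the numbers mark pairs. With the block 63 genes of the table were higher and 146 lower.

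Among the lists, complex I had 2 calls with library totals, 5 with no filter, 0 with the block and 0 to 8 when libraries were left out. Citrate cycle enzymes had 2 with library totals, 12 with DESeq2, 0 with the block and 0 to 6. Import genes had 1, 7 and 0 in the same settings and 0 to 2 when libraries were left out. The assembly factor list had 1 with library totals, 0 with the block and 0 to 2. Mitochondrially encoded genes had 2 with DESeq2. Regulators had 1 higher with DESeq2, 1 lower with library totals and 0 to 1 higher when libraries were left out.

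With library totals 6 of 55 estimates changed sign, those of Atp5e (-0.019), Atp5g2 (-0.0041), Atp5l (-0.015), Cox10 (-0.031), Cox11 (-0.016) and Cox16 (-0.031). When single libraries were left out, Cox8b ran from -0.37 to 0.19 (above 0 without AZD1152 replicate 2) and Uqcrc1 from -0.28 to 0.046 (above 0 without vehicle replicate 1 or AZD1152 replicate 1). The difference in the ratio of Cox7a1 to Cox7a2 ran from -0.21 to 0.14 when libraries were left out. The cause of these changes was not tested. With 3 and 4 libraries, differences near 1.2-fold lie close to the limit of the test, and Cox4i2, Cox6a2 and Cox16, with under 100 counts each, have wide errors.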

Other observations

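Some, but not all, genes of this pathway that share most of their exonic length with a neighbour had almost no counts. Pet117, an assembly factor of complex IV, shares 100% of its exonic length with Kat14, Sco2, a copper chaperone of complex IV, shares 68.32% with Tymp, and Tomm6, a subunit of the outer membrane import pore, shares 75.95% with Gm21981. All 3 had 0 counts in the 7 libraries, beside the 1 count of Cox20. Genes with a like overlap that had counts were Pet100 (52.63% shared, 711 counts), Cox16 (56.78%, 95 counts) and Sdhaf1 (69.6%, 80 counts). Whether the overlap bears on these counts was not tested.

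The mitochondrially encoded subunits were counted very unevenly, with 4568564 counts of mt-Co1 and 1744573 of mt-Cytb over the 7 libraries, against 15160 of mt-Co2, 11239 of mt-Co3, 4680 of mt-Atp6 and 17 of mt-Atp8.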
